A study of Caenorhabditis elegans with 2 samples.

Results

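The regions described here are the autosomal promoter regions that both replicates of a C. elegans chromatin immunoprecipitation sequencing (ChIP-seq) study of the nuclear hormone receptor NHR-12 had in common. A region of replicate 1 was a member when it lay on one of the 5 autosomes, when its summit (the base of highest signal) lay inside a region of replicate 2, and when that summit was no more than 500 bp from a protein-coding transcript start in the Ensembl 115 annotation of the WBcel235 (ce11) genome. There were 684 such regions. They came from 13876 regions in the replicate 1 list and 23791 in the replicate 2 list, of which 11312 and 19567 were autosomal. No signal value entered this choice, but presence in both lists did, so presence in both is not a finding about them.

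The worms were strain OP318, of genotype unc-119(ed3) III with the transgene insertion wgIs318, which codes for NHR-12 fused to eGFP. Whole L3 larvae of mixed sex were used, and both replicates were of this 1 group, with libraries of 150 to 350 bp. The labels describe the antibody by its target, nhr-12, only, and a whole-larva list cannot tell which tissues a region came from. No other genotype, stage or condition was analysed here, so the comparisons below are between regions, or between regions and the genome sequence, and not between conditions.

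Nuclear hormone receptors are transcription factors that bind short DNA words and in many cases a small lipophilic ligand. The family is far larger in nematodes than in insects or mammals, and most of its members in C. elegans have no known ligand. C. elegans promoters are compact. Many neighbouring genes are transcribed away from each other from a shared stretch of DNA, and many mature messages begin with a spliced leader, so an annotated start can mark the splice site rather than the first transcribed base.

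The deposited replicate lists hold weak background regions on purpose, because they feed a filter on reproducibility, the irreproducible discovery rate (IDR). The signal value, a score from the caller the authors used, served here only to rank regions within 1 list. Of the 684 promoter regions, 1 had a q-value under 0.05 in replicate 1, the region at rpl-3, and 0 had one in replicate 2, where the lowest was 0.0989. In the full autosomal lists the shares were 0.0796% and 0%. In both lists at once, 591 of the 684 members (86.4%) had a q over 0.5, and 87.6% of the shared regions farther than 500 bp from a start did. The lists carry no read counts, so sequencing depth is unknown and the 95% intervals given below (exact Clopper-Pearson) cover counting error over regions only. Regions of 1 library are not independent replicates of worms, and no test was made.

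The 101 bases around the summit are shown for 4 of the strongest members, because these regions rank high in both lists. Each is the plus strand of WBcel235 from RefSeq, read 5′ to 3′, with the summit at the middle base. Capitals mark the words that were searched for in all members. The pigq-1 window is chrIV:11147117-11147217, that of sec-61.G is chrV:10897299-10897399, that of gst-22 is chrV:16232127-16232227, and that of the divergent pair of C16C10.4 is chrIII:4171142-4171242.
pigq-1: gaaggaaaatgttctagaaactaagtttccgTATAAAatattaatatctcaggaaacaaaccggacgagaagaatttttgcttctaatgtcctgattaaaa
sec-61.G: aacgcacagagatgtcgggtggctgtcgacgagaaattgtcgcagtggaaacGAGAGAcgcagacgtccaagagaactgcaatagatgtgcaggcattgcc
gst-22: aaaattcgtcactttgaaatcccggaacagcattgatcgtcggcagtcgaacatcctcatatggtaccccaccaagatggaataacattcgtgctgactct
C16C10.4: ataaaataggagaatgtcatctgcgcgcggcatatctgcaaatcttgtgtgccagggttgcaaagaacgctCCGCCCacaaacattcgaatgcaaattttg
The sec-61.G and C16C10.4 windows are centred between genes, the pigq-1 window in an intron and the gst-22 window in a coding exon. The pigq-1 window holds TATAAA, the sec-61.G window GAGAGA and the C16C10.4 window CCGCCC, the reverse complement of GGGCGG. None of the 8 words searched for lay in the gst-22 window.

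By the worse of its ranks in the replicates, the strongest member lay at rpl-3, which codes for a protein of the large ribosomal subunit. Its summit was 207 bp upstream of the start, and its signal was 37.1 in replicate 1 and 23.8 in replicate 2. That put it at rank 2 of 11312 autosomal regions and rank 19 of 19567. The member at pigq-1, named after a human gene of glycosylphosphatidylinositol anchor synthesis, reached 20.5 (rank 98) and 25.8 (rank 11), with its summit 80 bp downstream of the start. Its summits in the replicates were 3 bp apart, whereas those at rpl-3 were 143 bp apart. The member at Y43B11AR.3, 92 bp downstream of the start, had the highest replicate 2 signal of all members, 26.4 (rank 10), and 19.9 in replicate 1 (rank 122).

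A divergent pair followed. The region between lin-53, a histone-binding chromatin protein, and nra-2 had a signal of 24.1 in replicate 1 (rank 22) and 18.8 in replicate 2 (rank 145). These 4 regions, at rpl-3, pigq-1, Y43B11AR.3 and lin-53/nra-2, were the members that overlapped a peak of the authors' optimal list, 0.585% of members against 0.533% of all shared autosomal regions. The pooled list, called on the reads of both replicates together, overlapped 39 members (5.70%, interval 4.09 to 7.71), and the background over all shared autosomal regions was 5.25%. Both shares are near their background.

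Several further members ranked high in both lists. The translocon gene sec-61.G, which serves protein entry into the endoplasmic reticulum, had signals of 21.3 and 18.1 at a summit 206 bp upstream. The glutathione S-transferase gene gst-22 had 20.99 and 16.2 at 105 bp downstream, with replicate summits 9 bp apart. The chemoreceptor-family gene srz-1 had 19.1 and 19.3 at 491 bp downstream, inside its coding sequence and close to the limit of the window. C37C3.1 had 17.2 and 17.6, oac-59 had 17.3 and 15.8, and fos-1, a bZIP transcription factor that acts in anchor cell invasion, had 16.5 and 16.5. All of these values lay above the 90th percentile of their lists.

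2 strong members need a qualification on the gene they were assigned to. The region counted for idh-1, an isocitrate dehydrogenase, had signals of 19.7 (rank 131) and 19.3 (rank 121), but the start behind it belongs to a short annotated transcript inside the gene. Its summit lay in a coding exon of the neighbouring gene F59B8.1. The member at F55A11.6 had signals of 20.9 (rank 83) and 19.6 (rank 108), and its summit lay in an exon of the non-coding RNA gene F55A11.13, with the small nucleolar RNA gene F55A11.10 within 500 bp. A second member, at F55A11.11, rests on the same replicate 2 region. Among all members, 118 of 684 lay within 500 bp of an internal start but of no 5′ end of a protein-coding gene, and 3 of the 31 that reached the top 10% of both lists did (idh-1, fos-1 and C01B10.6).

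A small non-coding RNA gene lay within 500 bp of 20 members (2.92%, interval 1.80 to 4.48), against 3.64% of the shared regions away from starts. The annotated neighbours were 10 small nucleolar RNA genes, 7 tRNA genes, 2 small nuclear RNA genes and 2 miRNA genes. Of the 20 strongest members 4 had such a neighbour, those at F55A11.6, Y43B11AR.3, pdl-1 and zen-4, and in each case it was a small nucleolar RNA gene. The shares above are over all ranks, and none is given here for equally strong regions away from starts. The 4 therefore cannot be read as particular to promoters. At zen-4, the kinesin of the central spindle, the summit itself lay in the small nucleolar RNA gene M03D4.78, 401 bp upstream of the zen-4 start, with signals of 15.3 and 18.7. Which of the neighbouring genes the signal belongs to was not tested.

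**Figure D1:**
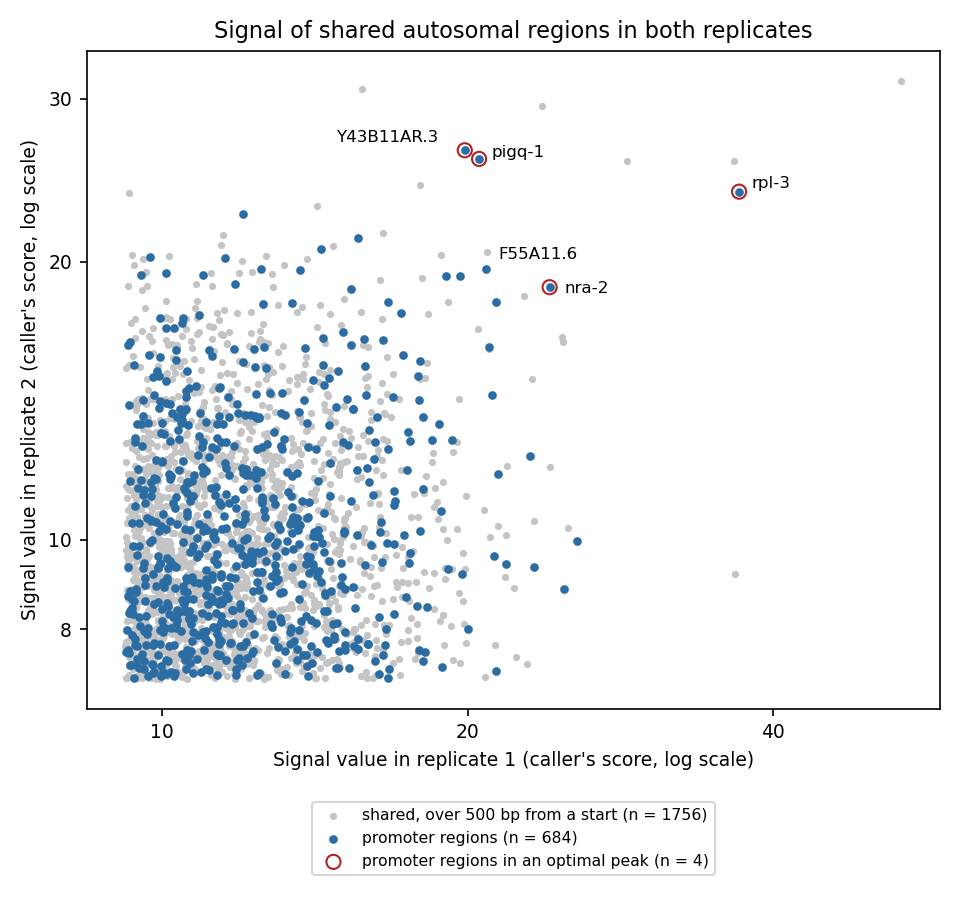
Signal value of each shared autosomal region in replicate 1 (horizontal, log scale) and replicate 2 (vertical, log scale). Blue points are the 684 promoter regions, grey points the 1756 shared regions farther than 500 bp from a start, and red rings the 4 members in an optimal peak; most points fill the low corner without a trend, and rpl-3, pigq-1, Y43B11AR.3 and nra-2 stand out in both replicates.

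Over all members, the ranks of the promoter regions in the replicates had little relation. The signal ran from 9.21 to 37.1 in replicate 1, with a median of 11.57, and from 7.08 to 26.4 in replicate 2, with a median of 9.74. The Spearman correlation of the signals was 0.11 over the 684 members and 0.05 over the 1756 shared regions away from starts, given as a description over regions of the same libraries. Many members were strong in 1 replicate only.

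Replicate 1 gave such cases at T10C6.10, with signals of 25.6 (rank 11) and 9.97 (rank 7350), and at cyn-5, a cyclophilin, with 24.9 (rank 15) and 8.84 (rank 10992). The FK506-binding protein gene fkb-5 had 23.3 (rank 32) and 9.34 (rank 9245). Replicate 2 gave the reverse at Y43D4A.6, with 12.02 (rank 4082) and 22.5 (rank 29). C23G10.2, also among the 5 highest of replicate 2, was in the top 10% of both lists, with 15.6 (rank 882) and 21.2 (rank 44). These genes were named because they held the highest signal in 1 list, so their lower rank in the other list is a description.

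The members' ranks lay slightly above the middle of both lists. Their median percentile was 57.3 (interval 53.9 to 61.6) in replicate 1 and 59.2 (54.8 to 63.5) in replicate 2, where 50 is the middle of the list. Shared regions away from starts had medians of 53.7 and 58.7, and replicate 1 promoter regions outside the replicate 2 list had 47.6. The strongest 10% of the replicate 1 list held 105 members (15.4%) and that of replicate 2 held 128 (18.7%), against 12.3% and 14.8% of the regions away from starts. Members below the median in both lists numbered 134 (19.6%), against 19.2% away from starts.

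**Figure D2:**
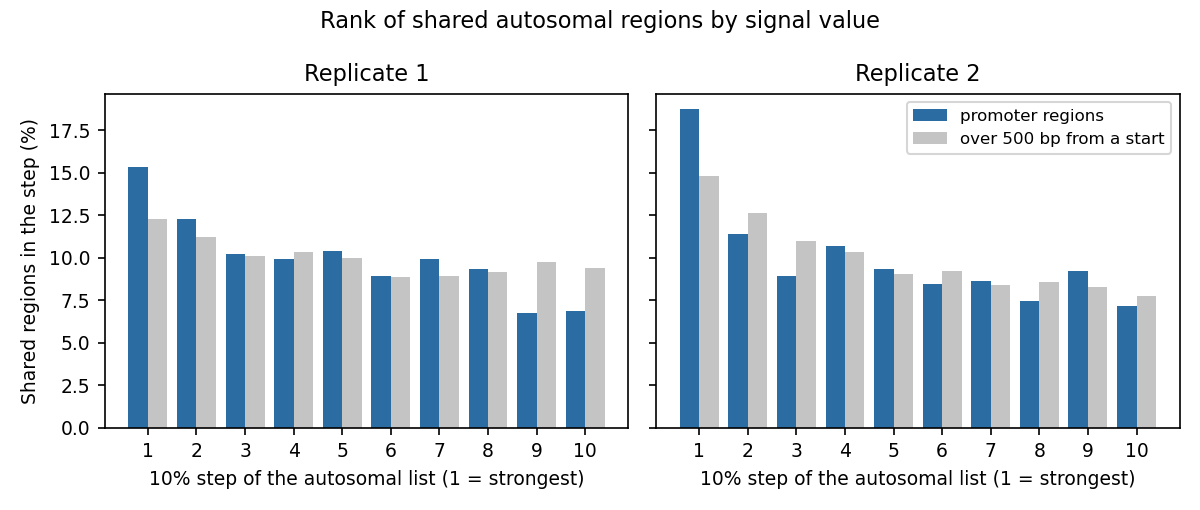
Share of shared autosomal regions (vertical, %) in each 10% step of the replicate 1 list (left) and the replicate 2 list (right), from the strongest (1) to the weakest (10). Blue bars are the promoter regions and grey bars the shared regions over 500 bp from a start; the strongest step is the fullest in both panels, with 15.4% and 18.7% of promoter regions.

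The question of how often a shared region lay at a promoter was answered against the genome itself. Of 2440 autosomal regions in both lists, 684 were within 500 bp of a start, 28.0% (interval 26.3 to 29.9). Such windows made up 24.0% of autosomal sequence. The share was 25.7% (24.8 to 26.6) for replicate 1 regions outside the replicate 2 list, and 25.9% for all autosomal regions of replicate 2. Conversely, 23.1% of the replicate 1 promoter regions (21.6 to 24.6) and 21.04% of those away from starts (20.2 to 21.9) had their summit in a replicate 2 region, with 21.6% over all autosomal regions of replicate 1. The replicate 2 list covered 9.52% of the autosomes and 10.3% of the promoter windows. The surplus of shared regions at promoters was therefore a few percentage points, and the intervals of the last pair of shares overlapped.

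The promoter share was highest among regions that ranked high in both lists. In the top 2% of both, 8 of 17 regions were at promoters (47.1%, interval 22.98 to 72.2). Between the top 2% and the top 10% there were 23 of 57 (40.4%, 27.6 to 54.2). The lower classes held 27.6%, 31.7% and 26.3%, and the last of these, regions outside the top 50% of at least 1 list, made up 1645 of the 2440. Put together, 31 of the 74 regions in the top 10% of both lists were at promoters (41.9%, 30.5 to 53.9), against 27.6% (25.8 to 29.4) of the other 2366. Leaving out regions in an optimal peak or near a small RNA gene gave 24 of 49 (49.0%, 34.4 to 63.7). This step removed more regions away from starts than promoter regions, which by itself raises the share. At any rank, an optimal peak overlapped 4 members and 9 shared regions away from starts. A small RNA gene lay near 20 members and 64 of those regions.

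Within 1 list the rise was smaller or not clear. The promoter share in the top 10% of replicate 1 was 26.9% (interval 24.4 to 29.6). That interval holds the 26.2% of all its autosomal regions. In the top 10% of replicate 2 the share was 28.7% (26.7 to 30.8), against 25.9% of all its autosomal regions. In the top 1% it was 35.1% (26.4 to 44.6) in replicate 1 and 28.1% (21.9 to 34.9) in replicate 2. Seen from the members, 31 of 684 (4.53%, 3.10 to 6.37) reached the top 10% of both lists, against 2.45% (1.78 to 3.28) of the regions away from starts and 3.03% of all shared autosomal regions. In the top 25% of both lists there were 82 members (11.99%), against 10.1% away from starts and 10.6% overall.

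**Figure D3:**
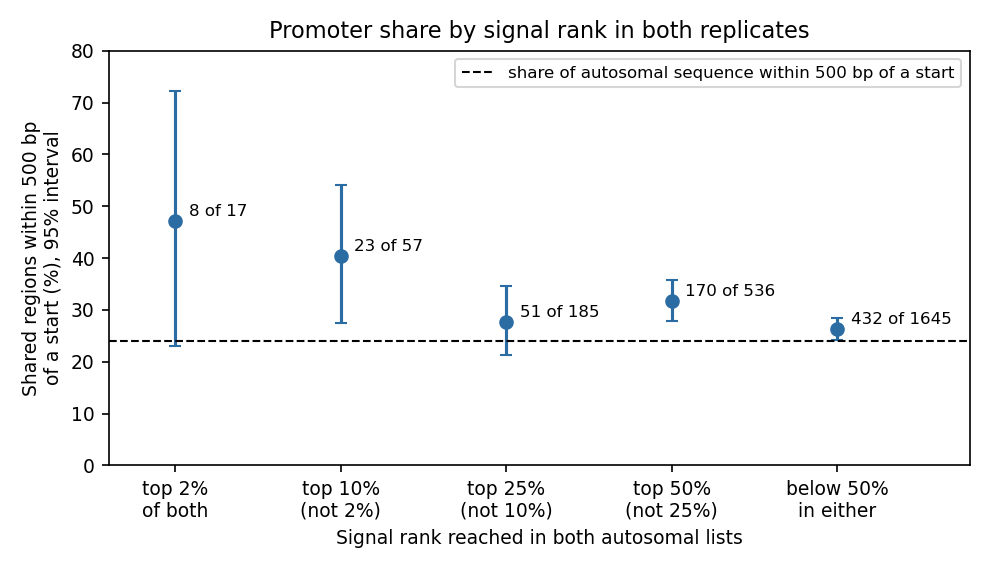
Share of shared autosomal regions within 500 bp of a protein-coding start (vertical, %, with 95% Clopper-Pearson intervals) by the rank that a region reached in both lists (horizontal), with counts beside the points. The dashed line is the 24.0% of autosomal sequence in such windows; the 8 of 17 and 23 of 57 regions at the left lie highest, and the interval of the first reaches just below the line.

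The 31 members in the top 10% of both lists included, besides those described above, ncbp-2, a subunit of the nuclear cap-binding complex, with signals of 15.4 and 16.2 at 4 bp downstream of the start. The member at icl-1, the enzyme of the glyoxylate cycle, had 16.9 and 14.3, and that at the mitochondrial pyruvate carrier gene mpc-1 had 15.4 and 13.9. The endocytic adaptor gene dab-1 had 17.9 and 14.2, and the astacin-family protease gene toh-1 had 15.2 and 14.2. The cuticle gene dpy-11 had 16.3 and 13.6, and ego-1, a germline RNA-dependent RNA polymerase, had 18.1 and 13.6. In this group the replicate 1 ranks ran from 2 to 1119 and the replicate 2 ranks from 10 to 1882. The 20 strongest members were the ones that stood among the 1000 strongest autosomal regions of both lists, 2.92% of members (1.80 to 4.48), against 1.77% (1.20 to 2.50) of the regions away from starts.

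By side, 349 members lay upstream of the nearest start and 335 downstream. The upstream share, 51.0% (interval 47.2 to 54.8), compares with 47.8% of the sequence in the same windows and 48.2% of the promoter regions of replicate 1 alone, and both lie inside the interval. Summits within 100 bp of the start numbered 164 (24.0%), against 22.5% of the sequence, and the median distance was 237 bp, against 233 bp for the sequence. The fullest 100-bp bin was the one directly upstream of the start, with 91 members (13.3%, 10.8 to 16.1) where the sequence held 11.2%. Every bin had an interval that included the share of the sequence.

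**Figure D4:**
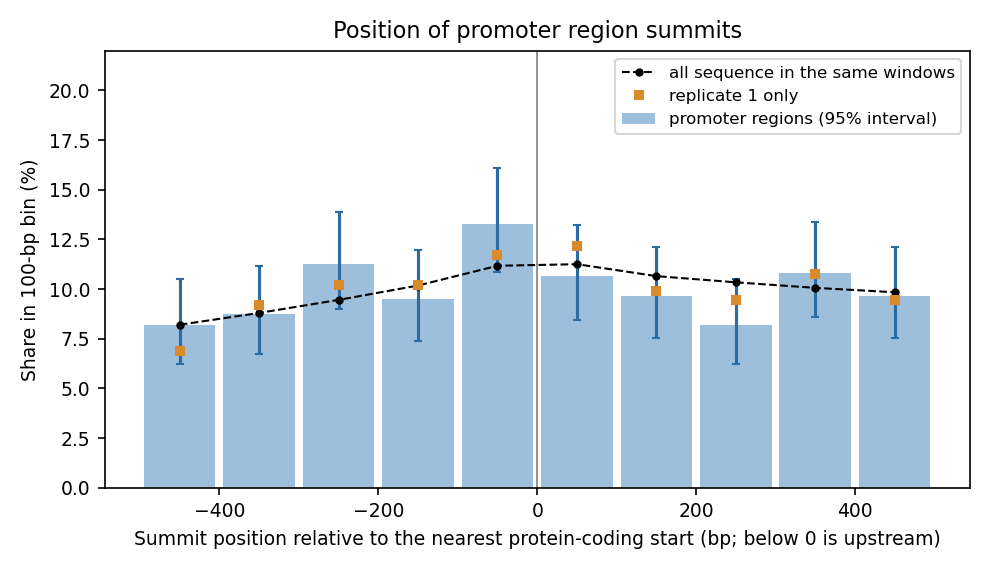
Share of members (bars, %, with 95% intervals) by the position of the replicate 1 summit relative to the nearest protein-coding start, in 100-bp bins from 500 bp upstream to 500 bp downstream. The dashed line is the share of all sequence in the same windows and the orange squares are promoter regions of replicate 1 outside the replicate 2 list; the interval of every bin includes the dashed line.

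The replicates gave opposite orders of median signal percentile by side, but the intervals of the sides overlapped in each replicate. In replicate 2 the upstream members had a median percentile of 63.3 (interval 58.4 to 68.5) and the downstream members 53.9 (47.9 to 60.7). In replicate 1 the order was opposite, 55.3 (50.6 to 61.1) upstream and 59.7 (54.3 to 64.9) downstream. At the limit of the window, pdfr-1 was included at 500 bp upstream with signals of 10.3 and 10.8, and F47B8.5 was left out at 502 bp upstream with 12.6 and 9.50.

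By annotation, 232 summits (33.9%) lay between genes, 193 (28.2%) in introns and 179 (26.2%) in coding exons. A further 40 lay in 5′ untranslated regions, 27 in 3′ untranslated regions and 13 in exons of non-coding genes. The sequence of the same windows was 31.2% intergenic, 29.0% intronic and 30.1% coding. Coding exons were the 1 class whose sequence share lay above the members' interval (22.9 to 29.6). Of the upstream members, 228 of 349 (65.3%) were intergenic and 63 (18.1%) lay in an intron, while of the downstream members 161 of 335 (48.1%) lay in a coding exon and 130 (38.8%) in an intron.

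The summits of a member in the replicates were a median of 70 bp apart, and 254 members (37.1%, interval 33.5 to 40.9) had them within 50 bp. A summit spread evenly over a replicate 2 region would give 24.3%. Shared regions away from starts had a median of 71 bp and a share of 39.0%, so the closer spacing was not confined to promoters. In the top 10% of both lists 13 of 31 members were within 50 bp.

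Divergent pairs accounted for 33 members (4.82%, interval 3.34 to 6.71), against 4.57% of the sequence in promoter windows and 4.47% of promoter regions of replicate 1 alone. They stood for 32 pairs of genes with starts 20 to 838 bp apart, at a median of 383 bp, and 24 of the summits lay between the starts. Their median percentiles, 47.9 (interval 25.4 to 81.2) and 50.5 (35.9 to 84.5), lay near the middle of the lists, with wide intervals. After lin-53/nra-2, the next were the ubiquitin ligase gene rnf-121 with C16C10.4, at 16.7 and 18.1, whose summit lay 239 bp from one start and 144 bp from the other.

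The pair C47E8.4/hsp-90 had signals of 15.9 and 14.3, and its hsp-90 side codes for the cytosolic chaperone of that name. A second replicate 1 region at C47E8.4, with a signal of 21.1, rests on the same replicate 2 region. The pair of the proteasome gene pas-3 with use-1 had 14.4 and 15.5, and the pair of the splicing factor gene rsp-3 with spin-4 had 13.1 and 12.6. Other pairs were uneven, such as sws-1/mrps-35 with 11.5 and 20.2, and rps-19/hsr-9 with 19.7 and 9.18. The glutamyl-tRNA synthetase gene ears-2 and uncp-18 were the pair with 2 regions, 12.7 and 10.17 in replicate 1, over 1 replicate 2 region of 9.47.

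Chromosome III held 131 members, or 44.1 per Mb of promoter window. The other autosomes held 117 (I), 127 (II), 129 (IV) and 180 (V), or 34.9, 32.7, 32.2 and 32.2 per Mb. The same chromosome was also denser for all shared regions, with 35.6 per Mb of chromosome against 27.4 to 28.9 on the others, and for the whole lists, with 147 against 130 to 141 per Mb in replicate 1 and 262 against 225 to 239 in replicate 2. The density of the lists thus moved with that of the members, and its part in the result was not tested.

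The members were assigned to 691 of 17242 autosomal protein-coding genes (4.01%). A promoter region in the replicate 1 list alone was assigned to 16.5% of genes, and one in the replicate 2 list to 26.5%. Of the 691 genes, 666 had 1 member and 24 had 2, and atx-2, an ataxin-2-related RNA-binding protein, had 3. At atx-2 the replicate 1 signals were 10.6, 10.4 and 10.1, and a replicate 2 region of 13.8 served the first pair while one of 8.88 served the last. In all, 22 members shared their replicate 2 region with another member, which left 673 distinct replicate 2 regions.

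Gene families were read against that 4.01%. Of 28 lists defined by gene symbol, which hold 135 of the 691 genes, 13 had a higher share and 15 a lower one. The chemoreceptor list was the 1 list whose interval lay wholly below, with 32 of 1331 genes (2.40%, interval 1.65 to 3.38), and 0 lists lay wholly above. Chemoreceptor genes also had fewer regions in each list alone, 12.5% in replicate 1 and 20.7% in replicate 2. Low shares were not particular to them. C-type lectin genes had 4 of 237 (1.69%, 0.46 to 4.26), with 10.5% and 19.4% in the replicates alone. F-box and MATH-BTB genes had 10 of 412 (2.43%, 1.17 to 4.42), with 12.1% and 19.2%. Both of these lists are smaller and have wider intervals. Of 67 homeobox genes 0 had a member. Their shares in each list alone, 20.9% in replicate 1 and 31.3% in replicate 2, were above the 16.5% and 26.5% of all genes. A count of 0 allows a share of up to 4.48% (3 counts of the total), and the upper end of the exact interval was 5.36%.

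Nuclear hormone receptor genes, the family of NHR-12 itself, had a member at 11 of 247 genes (4.45%, interval 2.24 to 7.83), close to the share of all genes. The strongest was nhr-42, with signals of 12.5 and 13.5 at 304 bp downstream. The member at nhr-134 had 13.4 and 10.4, and nhr-13 had 2 members, with 13.7 and 10.4 for the stronger. At nhr-49, a regulator of fat metabolism, the signals were 9.99 and 13.4 at 280 bp upstream. The others were nhr-55, nhr-88, nhr-124, nhr-127, nhr-239, nhr-241 and nhr-256, and none of the 11 ranked in the first 1000 of both lists. The nhr-12 gene (chromosome V, 10082133 to 10084049, minus strand) had no member, and the nearest one, at rmd-2, was 96.5 kb away.

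Ribosomal protein genes had members at 4 of 79 (5.06%, interval 1.40 to 12.5), of which rpl-3 was high in both replicates. By replicate 1 signal the next was rps-19, with 19.7 in replicate 1 (rank 128) and 9.18 in replicate 2 (rank 9746), and rps-4 had 14.1 and 9.84. Vesicle traffic genes had members at 7 of 98 (7.14%, 2.92 to 14.2), led by sec-61.G. The small GTPase gene arf-1 had 13.8 and 16.1, while the late endosome GTPase gene rab-7 had 18.1 in replicate 1 and 7.56 in replicate 2.

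Detoxification enzymes had members at 9 of 174 genes (5.17%, interval 2.39 to 9.59). After gst-22, the strongest of them were gst-31, with 11.5 and 12.1, and the cytochrome P450 genes cyp-13A12, at ranks 2727 and 6311, and cyp-13A6, with 14.1 and 10.1. Lipid metabolism genes had 5 of 100 (5%, 1.64 to 11.3), with the short-chain dehydrogenase gene dhs-8 first, at 14.4 and 16.5, and the acyl-CoA dehydrogenase gene acdh-1 at 17.8 and 8.47. Cuticle collagen genes, which are active in molting larvae, had 5 of 143 (3.50%, 1.14 to 7.97), and each of the 5 had a replicate 2 signal under 8.30. Their replicate 1 signals ran from 9.96 at col-71 to 16.7 (rank 517) at col-121.

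Germline genes had members at 8 of 126 (6.35%, interval 2.78 to 12.1). Among them, the germ granule gene pgl-2 had signals of 12.8 and 9.13. Neuronal genes had 7 of 228 (3.07%, 1.24 to 6.22), where the cGMP-dependent kinase gene egl-4 was strongest, at 14.4 and 20.6. The neuropeptide gene nlp-36 had 21.3 in replicate 1 and 9.59 in replicate 2. Muscle genes had 3 of 35 (8.57%, 1.80 to 23.1), among them the actin gene act-3 at 9.95 and 17.4. Histone genes, which lie in near-identical copies, had 2 of 68 (2.94%, 0.36 to 10.2), an interval that includes 4.01%. In the replicates alone their shares were 5.88% and 5.88%, against 16.5% and 26.5% of all genes. Whether the near-identical copies played a part was not tested.

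**Figure D5:**
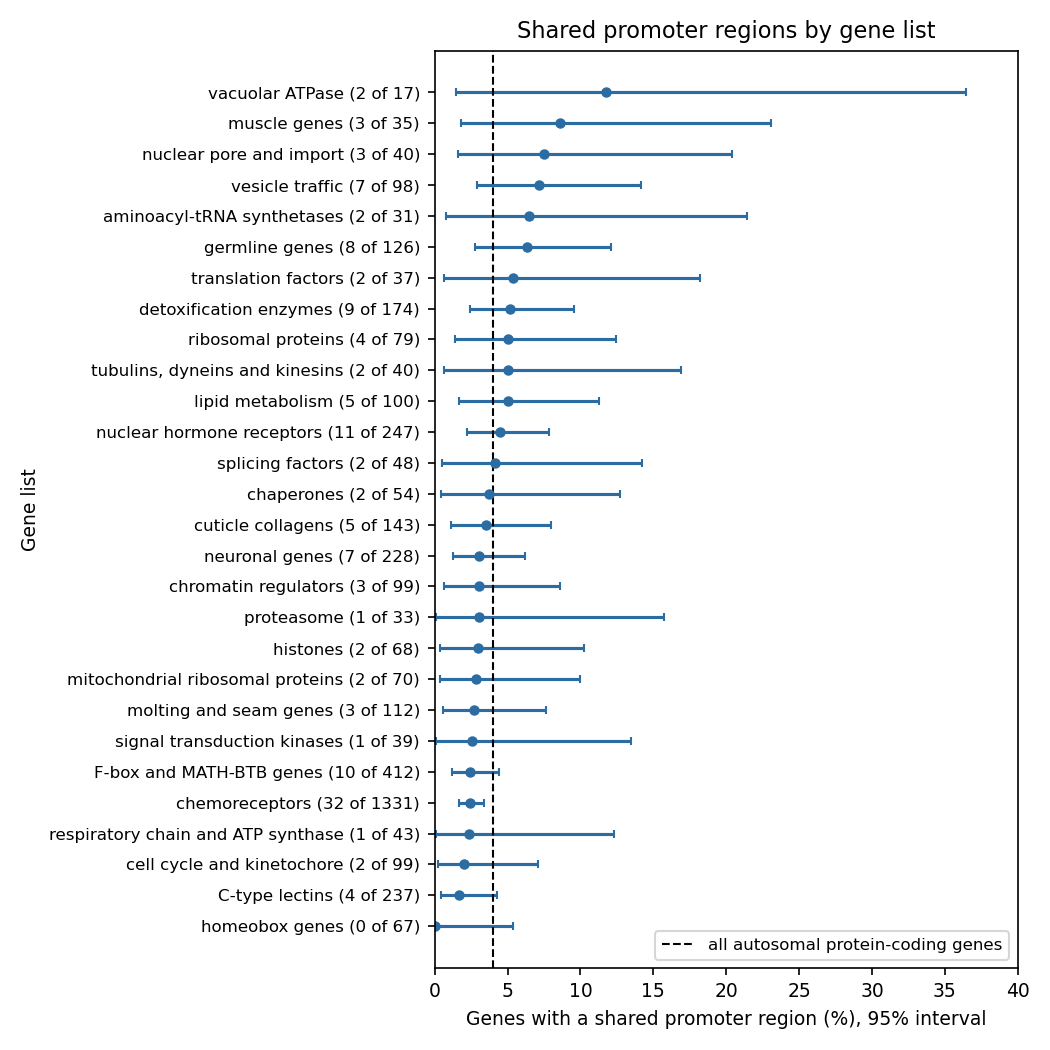
Share of genes with a member (horizontal, %, with 95% intervals) for each of the 28 gene lists, with the number of genes beside its name. The dashed line is the 4.01% of all autosomal protein-coding genes; the interval of the chemoreceptors lies below it, and every other interval includes it.

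The DNA under the members was searched for 8 words within 50 bp of the summit, on both strands. AGGTCA and GGGTCA, the half-site words known for many nuclear receptors, were counted together. They occurred in 35 members (5.12%, interval 3.59 to 7.04), against 3.93% of shared regions away from starts and 4.08% of promoter regions of replicate 1 alone. Among 196183 windows of 101 bp in promoter sequence the share was 3.82%. All of these shares lie inside the interval of the members. The strongest of the 35 was Y43B11AR.3, whose summit lies in an untranslated region and is not shown, and the next 4 are shown with the word in capitals: F59B10.4 at chrII:10518742-10518842, pdl-1 at chrII:7183897-7183997, egl-4 at chrIV:1854100-1854200 and arf-1 at chrIII:5715077-5715177.
F59B10.4: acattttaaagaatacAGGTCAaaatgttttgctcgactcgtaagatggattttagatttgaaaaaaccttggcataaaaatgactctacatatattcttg
pdl-1: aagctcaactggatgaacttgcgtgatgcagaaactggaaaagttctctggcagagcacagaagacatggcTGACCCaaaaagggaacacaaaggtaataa
egl-4: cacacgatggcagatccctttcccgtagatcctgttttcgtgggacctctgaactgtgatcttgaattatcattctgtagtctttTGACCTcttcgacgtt
arf-1: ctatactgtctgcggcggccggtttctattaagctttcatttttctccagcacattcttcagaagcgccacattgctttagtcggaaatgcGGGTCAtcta
TGACCT and TGACCC are the same words on the other strand. F59B10.4 had signals of 15.9 and 15.4, and pdl-1 had 17.9 and 15.1. The 35 members with the word had median percentiles of 53.8 in replicate 1 and 74.2 in replicate 2, where all members had 57.3 and 59.2. These medians rest on 35 regions and are given without an interval, so the differences are a description. Of the 35, 20 lay upstream of the start, where the share over all members was 51.0%.

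The other words gave shares near those of promoter sequence. GAGAGA occurred in 47 members (6.87%, against 5.79% of promoter windows), TATAAA in 86 (12.6% against 11.9%), GGGCGG in 16 (2.34% against 1.85%), and TTTCAG, the end of a typical C. elegans intron, in 150 (21.9% against 21.1%). CACGTG occurred in 12 members (1.75% against 1.90%) and GCAGGGA in 1 (0.146% against 0.391%). A run of 10 T occurred in 28 (4.09%, interval 2.74 to 5.86, against 2.72%), the 1 word whose interval lay above the share of promoter sequence, by a narrow margin. Centred on the replicate 2 summit its share was 3.36% (2.14 to 5.003), and that interval includes 2.72%.

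The median GC content of the 101-bp windows was 34.7% for members and 35.6% for promoter sequence, and 38.6% (interval 35.6 to 45.5) for the 31 members in the top 10% of both lists. Windows that were mostly repeat-masked made up 27.9% of members, 26.4% of promoter windows and 32.6% of shared regions away from starts.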

How the data were processed

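The authors called regions against control alignments and deposited a list with background for each replicate, a pooled list and an optimal IDR list, for ce10 and for ce11, as the text they deposited says. Neither the aligner nor the caller nor the IDR threshold is named in the sources used here. The deposited signal value is a score within its list, and the q-value was deposited as −log10 and converted back to q. The p-value column that the authors deposited holds −1 in all 13876 and 23791 rows, so it was not used. Positions are as deposited, given 1-based.

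Summits were placed against all Ensembl 115 protein-coding transcript starts. Genes were the nearest start, plus both genes of a divergent pair within 500 bp. Where several replicate 2 regions held a summit, the strongest gave the replicate 2 values, for members and for regions away from starts alike. That choice can raise replicate 2 values but not lower them. Ranks and percentiles are within the autosomal rows of 1 list, from 0 (weakest) to 100. Sequence shares by position and annotation were computed over every autosomal base. Those for words, GC content and repeat masking used 196183 windows of 101 bp in promoter sequence. The ce10 lists gave 1 alternative. Members, gene lists and the rule for named genes (the 20 strongest by their worse rank, the 5 highest in each replicate, those in a pooled region, up to 8 per list, genes with several members, nhr-12) were chosen with earlier results of these data known; C01B10.6, dpy-11, ego-1, icl-1, mpc-1, nhr-88, nhr-239 and nhr-241 were named after their values were seen. Replicates are 2 samples of 1 group, and no test was run. Region matching, side, distances, nearest genes and divergent pairs were tested on simulated data with known answers. The word search was not part of that test. The tools were scipy 1.17.1, pandas 2.3.3, numpy 2.4.6 and matplotlib 3.10.9 under Python 3.11.15. Some items are not reported here.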

Additional observations from a re-analysis of the deposited data

How the results depend on the processing

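Of 39 recomputed main values, 26 stayed close to the reported one and 13 moved. For counts, close allowed a change by a factor of up to 1.5. Thus 967 members with any overlap of 1 bp and 567 with 1 start per gene counted as close to 684. A promoter share of 25.9% against the reported 28.0% counted as moved. The number of members was 362 with a window of 250 bp, 1116 with 1000 bp, 442 when summits had to lie within 100 bp of each other, and 252 when the stronger 50% of each list was used. The promoter share was 14.8% with 250 bp (12.8% of sequence), 45.7% with 1000 bp (42.5%), 23.2% with 1 start per gene (19.6%) and 31.8% in the stronger 50% of each list. In 1 replicate alone it was 25.9% to 26.2%. The share at divergent pairs was 3.04% with 250 bp (1.95% of sequence) and 9.32% with 1000 bp (8.84%). Without the members that overlap a pooled region, an alternative chosen after seeing the data, the Spearman correlation was 0.015. That list was called on the reads of both replicates, so leaving out its regions removes members strong in both and lowers the correlation by construction. The upstream share ran from 48.4% to 54.4% over its alternatives. The gene list values moved in 57 of 112 recomputations, of which 55 used 1 replicate alone, and the word shares in 7 of 16, all of the latter with 100 bp on each side of the summit. The ce10 lists, also added after seeing the data, had 2826 shared autosomal regions of 14045 (20.1%). No paired analysis was possible because both replicates belong to 1 group. Ranking by the p-value column was not run, since it holds no p-values. Read depth is unknown and limits what a weak region can show.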
